A study of Mus musculus with 2 samples.

Results

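The Notch receptors Notch1, Notch2 and Notch3, the ligand Jag1, the Fringe enzymes Mfng, Lfng and Rfng, the DNA-binding factor Rbpj and the target genes Hes1 and Hey1 were followed in CT26 cells with and without knockdown of Setdb1. The 10 genes were taken by symbol from the gene table, and all 10 were found among its 54680 loci. CT26 is a mouse colon cancer line, and Setdb1 encodes a methyltransferase of lysine 9 of histone H3. The CT26shSetdb1 cells were infected with lentivirus carrying a short hairpin RNA against Setdb1, and the CT26shCtrl cells, labelled wild type, with virus carrying the empty knockdown vector. Both were grown in RPMI medium with serum for 6 days, when the knockdown cells are described as differentiated. The labels do not give the hairpin sequence, how many hairpins were used, or whether the cells were a pool or a clone.

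Each group had 1 library, so no difference below has a replicate check and no test between conditions was possible. The 10 genes were selected on this same comparison, by their FPKM values in these 2 libraries, and their values are given as a description of the libraries. The libraries held 18421604 reads (control) and 19045830 reads (knockdown). Setdb1 itself was at 10.4 FPKM in the control and 2.47 FPKM in the shSetdb1 library, and its gene model overlaps Cers2. Of 13 colon epithelium markers, 3 reached 1 FPKM, and the defining genes Epcam and Cdh1 had no reads in either library. The 3 were all at least 2-fold higher in the shSetdb1 library, as were 6.81% of all genes at 1 FPKM or more. Krt18 had 1016 and 2423 reads, Krt20 183 and 1285, and Krt19 1 and 53. Krt19 reached 1 FPKM in the shSetdb1 library alone (0.0288 and 1.53 FPKM), so the filter fixed its direction. The whole list summed to 43.2 and 128 FPKM. Of 10 fibroblast and mesenchyme markers 6 reached 1 FPKM, and the list summed to 940 and 971 FPKM, most of it Vim at 752 and 835 FPKM. Among the others, Col1a1, Col1a2 and Col3a1 were lower in the shSetdb1 library (read ratios 0.722, 0.652 and 0.320) and Pdgfra was higher (3.43). Col3a1 reached 1 FPKM in the control library alone and Pdgfra in the shSetdb1 library alone, so the filter fixed their directions. The 7 endothelium markers were all under 1 FPKM. Of 9 leukocyte markers only Cd68 reached 1 FPKM, with 245 reads in the control and 2360 in the shSetdb1 library. Ptprc, which defines leukocytes, had 0 and 4 reads. The part of these markers in the differences of the Notch genes was not tested.

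Notch signalling passes between touching cells. A ligand of the Jagged or Delta-like family on the sending cell binds a Notch receptor on the receiving cell, proteases of the ADAM family and the gamma-secretase complex cut the receptor, and its intracellular part enters the nucleus. There it joins Rbpj and a Mastermind coactivator on DNA and switches on genes such as Hes1 and Hey1, which encode transcriptional repressors. Without Notch, Rbpj recruits corepressors to the same sites. Fringe enzymes add a sugar to O-fucose on the receptor and so shift which ligands it answers to. In the intestine, Notch signalling keeps progenitor cells from becoming secretory cells.

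Rbpj binds DNA at sites with the core letters TGGGAA. These letters were looked for on both strands in the 250 bases before each RefSeq transcript start (GRCm38.p6), in which 7 of the 10 genes were matched. Mfng, Hes1 and Hey1 were not matched. The letters stood in 3 of the 8 windows of the matched genes, that of Lfng and 2 overlapping windows of Rbpj itself, and in 21.6% of all 32851 windows. The 2 Rbpj windows share a site, and by gene the letters stood in 2 of 7. The longer form GTGGGAA, which contains the shorter one, stood in the Lfng window and in 5.42% of all windows. The letters GGGAA are also part of the sites bound by NF-kappaB. Parts of 4 windows that lie outside annotated exons are shown, with TGGGAA or its reverse complement TTCCCA in capitals. Lfng and Rbpj are shown for their matches, and Notch1 and Notch2 as the receptors whose levels differed in opposite directions. Lfng is from chr5:140607091-140607319 on the plus strand, Rbpj from chr5:53590096-53590213 on the plus strand, Notch1 from chr2:26503825-26504072 on the minus strand and Notch2 from chr3:98013288-98013526 on the plus strand.
Lfng: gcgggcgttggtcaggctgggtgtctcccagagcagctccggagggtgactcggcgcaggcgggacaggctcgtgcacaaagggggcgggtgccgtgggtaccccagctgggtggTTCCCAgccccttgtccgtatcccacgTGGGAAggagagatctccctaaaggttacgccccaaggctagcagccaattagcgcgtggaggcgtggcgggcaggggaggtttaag
Rbpj: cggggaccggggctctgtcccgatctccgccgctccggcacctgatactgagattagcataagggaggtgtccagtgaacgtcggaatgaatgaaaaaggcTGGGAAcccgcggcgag
Notch1: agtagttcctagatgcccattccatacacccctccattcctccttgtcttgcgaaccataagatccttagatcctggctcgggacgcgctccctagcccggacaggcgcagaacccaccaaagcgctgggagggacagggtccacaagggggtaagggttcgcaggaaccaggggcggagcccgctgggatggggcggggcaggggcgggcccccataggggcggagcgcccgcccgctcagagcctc
Notch2: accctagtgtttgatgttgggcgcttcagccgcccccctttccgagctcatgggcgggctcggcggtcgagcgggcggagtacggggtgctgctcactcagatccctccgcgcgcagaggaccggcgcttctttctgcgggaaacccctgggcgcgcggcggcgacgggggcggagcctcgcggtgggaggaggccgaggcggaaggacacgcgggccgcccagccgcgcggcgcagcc
The Lfng matches began 135 and 108 bases before the start, and the Rbpj match 149 bases before it. A further Rbpj match at 65 bases lies in an annotated exon and is not shown. The same site is the only match of the second Rbpj window, which lies wholly in annotated exons. A match of letters is a description and not a binding site.

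Expression is given as FPKM, the number of fragments scaled to gene model length and depth, so that levels can be set side by side between genes. The length is that of the whole gene model, 12750 bases for Rbpj and 2037 for Hes1, and need not match the transcripts present. Orders and shares between genes rest on these lengths. Whole reads could be recovered from the deposited values. Each log2 ratio sets (FPKM + 1) of the knockdown over that of the control, a scale that can understate differences of low genes. The read ratio is relative to each library's own total, with a 95% exact binomial (Clopper-Pearson) interval. Intervals cover counting error only, since each group had 1 library. Reads copied by PCR are not independent molecules, so the intervals can be too narrow even for counting error. A gene was counted when it reached 1 FPKM in at least 1 library, which 7 of the 10 genes did, 6 of them in both libraries and Mfng in the shSetdb1 library alone. The filter thus fixed the direction of Mfng. Of these 7, 1 was at least 2-fold higher on the log2 scale (Mfng), where 6.81% of 10671 genes were higher, and 1 at least 2-fold lower (Rbpj), where 4.85% were lower. The interval of the read ratio lay above 1 for Notch1, Hes1 and Mfng (3 genes; 35.2% of all genes) and below 1 for Notch2 and Rbpj (2 genes; 40.6% of all genes). For Lfng and Rfng it held 1. Since the genes were chosen with this comparison known, nothing is read from these counts.

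Notch1 (ENSMUSG00000026923, chromosome 2, 26457903 to 26516663, GRCm38) encodes a receptor widely used in development and in the intestinal crypt. It had 639 reads (2.40 FPKM) in the control and 1506 reads (5.65 FPKM) in the shSetdb1 library. The read ratio was 2.28 (2.08 to 2.50), while the log2 ratio of 0.97 was just short of the 2-fold mark on the scale with 1 FPKM added. With a pseudocount of 0.1 it was 1.20, and on log2(CPM + 1) of the recovered reads 1.17, both past that mark. In bulk RNA, more cells with Notch1 and more Notch1 RNA per cell cannot be told apart, here or for the other genes.

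Notch2 (ENSMUSG00000027878, chromosome 3, 98013527 to 98150361), the receptor with the highest level in both libraries, went the other way. It had 2258 reads (11.2 FPKM) in the control and 1562 reads (7.73 FPKM) in the shSetdb1 library, with a log2 ratio of -0.48 and reads at a ratio of 0.669 (0.627 to 0.714). Notch2 was therefore at 4.66 times the Notch1 FPKM in the control library and at 1.37 times in the shSetdb1 library. These levels rest on gene model lengths of 10782 bases for Notch2 and 14232 for Notch1. In the shSetdb1 library the reads of the 2 genes were close, at 1562 and 1506, so the 1.37 rests largely on these lengths.

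Notch3 (chromosome 17, 32120820 to 32166880), a receptor known from vascular smooth muscle, had 1 read in the control and 0 in the shSetdb1 library. A count of 0 allows 3 reads, which for Notch3 is 0.0199 FPKM. No fold is given, since both values are under that floor.

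Notch4, a receptor outside the 10 genes that is best known from endothelium, was measured to complete the family. It had 84 reads (0.556 FPKM) in the control and 508 reads (3.36 FPKM) in the shSetdb1 library, with a log2 ratio of 1.49 and reads at a ratio of 5.85 (4.64 to 7.46). Notch4 reached 1 FPKM in the shSetdb1 library alone, so the filter fixed its direction in the counts below. Of the 7 endothelium markers, Pecam1, Cdh5, Kdr, Emcn and Cldn5 had no reads in either library, and the sum of all 7 was 136 reads in the control and 163 in the other library, of which Vwf had 135 and 163. The 4 receptors together were at 14.1 FPKM in the control and 16.7 FPKM in the shSetdb1 library. Within that sum, Notch2 went from 79.1% to 46.2%, Notch1 from 17.0% to 33.7%, and Notch4 from 3.93% to 20.1%.

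**Figure D1:**
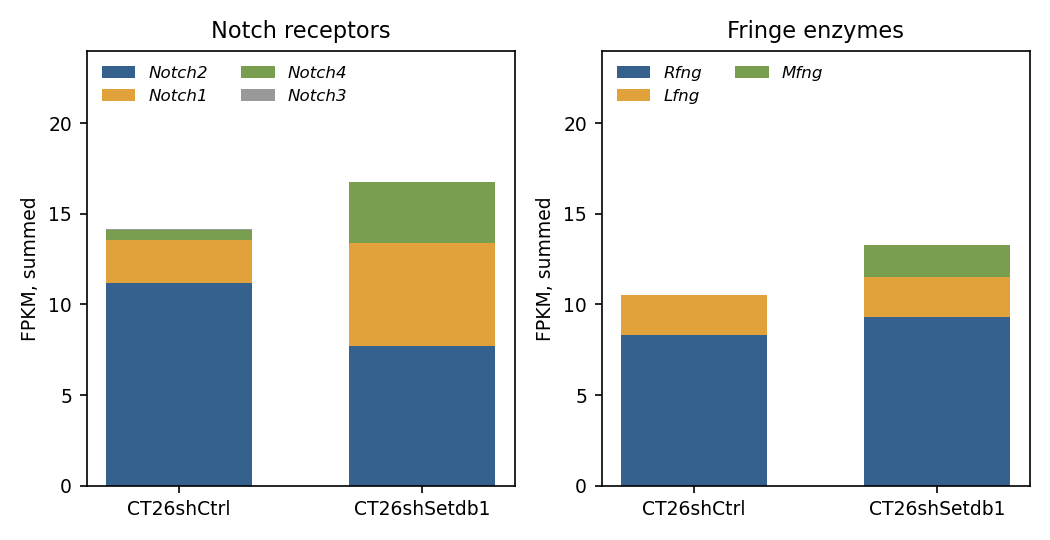
Summed FPKM (vertical axes, starting at 0) of the 4 Notch receptors (left) and the 3 Fringe enzymes (right) in the control and shSetdb1 library, stacked by gene, with 1 library per bar and no error bars. Notch2 made up 79.1% of the receptor sum in the control library and 46.2% in the shSetdb1 library, and Mfng is present only in the knockdown bar.

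Jag1 (ENSMUSG00000027276, chromosome 2, 137081456 to 137116644), which encodes the ligand Jagged-1, had no reads in either library, which allows up to 0.0275 FPKM in each. The other canonical ligands were also low. Jag2 had 18 reads in the control and 30 in the shSetdb1 library, with a read ratio of 1.61 (0.870 to 3.07). Dll3 had 1 and 4 reads and Dll4 1 and 3 reads. Dll1, named after its value was seen, encodes a Delta-like ligand and had 2 reads (0.0253 FPKM) in the control and 45 reads (0.569 FPKM) in the shSetdb1 library. Its read ratio was 21.8, with an interval from 5.68 to 185 that the 2 control reads make wide. All 5 Jagged and Delta-like genes summed to 0.196 FPKM in the control and 0.916 FPKM in the shSetdb1 library, under 1 FPKM in both. Among the noncanonical ligands, Dlk2 was the 1 gene to reach 1 FPKM, with 60 and 124 reads, a log2 ratio of 0.72. Its gene model overlaps Abcc10, which had 280 and 415 reads, and whether counting used strand is not given in the sources used here.

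Mfng (ENSMUSG00000018169, chromosome 15, 78755882 to 78773475), which encodes manic fringe, had the largest ratio of the 10 genes. It had 0 reads in the control and 95 reads (1.79 FPKM) in the shSetdb1 library. Since it reached 1 FPKM in the shSetdb1 library alone, the filter fixed its direction in the counts. Against a floor of 3 reads in the control library this is at least 30.6-fold higher, and the counting interval of the ratio starts at 24.4. On the log2 scale the value of 1.48 depends on the added 1 FPKM and is no bound. No other locus with reads overlaps Mfng.

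Lfng (ENSMUSG00000029570, chromosome 5, 140607320 to 140615545), which encodes lunatic fringe, had 105 reads (2.24 FPKM) in the control and 104 reads (2.22 FPKM) in the shSetdb1 library. Its read ratio was 0.958 (0.723 to 1.27), so differences within that interval were not detectable at this depth. Rfng (ENSMUSG00000025158, chromosome 11, 120780746 to 120784207), which encodes radical fringe, was the most abundant Fringe gene in both libraries. It had 387 reads (8.30 FPKM) in the control and 433 reads (9.29 FPKM) in the shSetdb1 library, a read ratio of 1.08 (0.941 to 1.24). Rfng made up 78.8% of the Fringe FPKM in the control and 69.9% in the shSetdb1 library. Mfng made up 13.4% in the shSetdb1 library.

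The enzymes that act before or beside Fringe on Notch differed in both directions. Of 8 listed, 7 reached 1 FPKM, 1 was at least 2-fold lower (4.85% of all genes) and 0 were higher by as much (6.81% of all genes), with a median log2 ratio of -0.34, against -0.00039 over all genes. Pofut1, which adds the O-fucose that Fringe extends, was at 14.4 and 14.9 FPKM. The O-glucosyltransferase Poglut1 was at 5.73 FPKM in the control and 2.58 in the shSetdb1 library, with a log2 ratio of -0.91. Kdelc2 (Poglut3), of the same family, had the lowest ratio, from 7.80 to 2.58 FPKM (-1.30; read ratio 0.320, 0.268 to 0.380). Xxylt1, a xylosyltransferase that extends the O-glucose chain, had the highest ratio of these 7, from 5.47 to 8.48 FPKM (0.55).

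Rbpj (ENSMUSG00000039191, chromosome 5, 53466152 to 53657362), through which all 4 receptors act on DNA, was the highest of the 10 genes in the control library. It had 3690 reads (15.5 FPKM) in the control and 1646 reads (6.89 FPKM) in the shSetdb1 library. Its log2 ratio of -1.06 went with a read ratio of 0.431 (0.407 to 0.457). With a correction for GC content and length it was -0.78, short of 2-fold. This value is less certain than those of the other genes, because the processed pseudogene Rbpj-ps3 on chromosome 6 matches the same protein and had 2588 reads in the control and 1268 in the shSetdb1 library. How reads were divided between these loci is not given in the sources used here. With the reads of both added up, 6278 against 2914, the read ratio was 0.449 (0.430 to 0.469). The antisense loci Gm10441 and Gm40304 overlap Rbpj with at most 8 reads each in a library.

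Hes1 (ENSMUSG00000022528, chromosome 16, 30064384 to 30067796), a repressor that is a standard readout of Notch activity, had 122 reads (3.20 FPKM) in the control and 228 reads (5.98 FPKM) in the shSetdb1 library. Its log2 ratio of 0.73 went with a read ratio of 1.81 (1.44 to 2.27), so the gene was higher in the shSetdb1 library but short of 2-fold. Hey1 (ENSMUSG00000040289, chromosome 3, 8663359 to 8667256), the related repressor, was near the limit of detection with 3 reads in the control and 7 in the shSetdb1 library. The read ratio of 2.26 had an interval of 0.515 to 13.5, which holds 1.

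Of the other 7 Hes and Hey genes, 5 (Hes2, Hes3, Hes5, Hey2 and Heyl) had no reads in either library. Hes6, which encodes a Hes protein known to oppose Hes1, was at 3.19 and 2.89 FPKM, with a read ratio of 0.878 (0.661 to 1.16). Hes7, a gene of the segmentation clock, had 20 and 31 reads. The list of further target genes described in various tissues held 12 genes outside the 10, of which 6 reached 1 FPKM, 2 were at least 2-fold lower (4.85% of all genes) and 0 higher by as much (6.81% of all genes), with a median log2 ratio of 0.13, or -0.0120 with a correction for GC content and length. Nrarp, a feedback inhibitor of Notch, had 72 and 107 reads, a read ratio of 1.44 (1.06 to 1.97). Myc, a growth-promoting transcription factor, was at 86.5 FPKM in the control and 30.4 FPKM in the shSetdb1 library (log2 ratio -1.48). Snai2, a repressor known from epithelial-mesenchymal transition, had the lowest ratio of the list at -1.99, and Nfkb2, an NF-kappaB subunit, the highest outside the 10 genes at 0.72, from 120 to 197 FPKM. Both directions thus occurred among the listed targets.

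**Figure D2:**
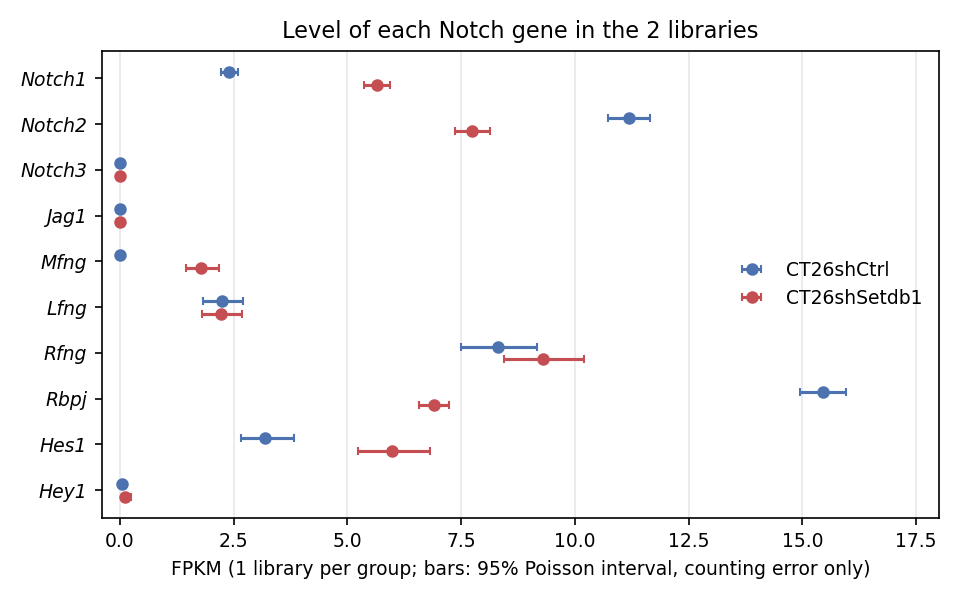
FPKM (horizontal axis) of each of the 10 genes in the control library (blue) and the shSetdb1 library (red), with 1 library per group and bars that give the 95% Poisson interval of the reads. Rbpj was at 15.5 against 6.89 FPKM and Notch2 at 11.2 against 7.73, Notch1 and Hes1 were higher in the shSetdb1 library, and Notch3, Jag1 and Hey1 lie near 0 in both.

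The plot of levels by library also shows that the order of the genes differed. The place of Rbpj in the shSetdb1 library is uncertain, since 1268 reads there were counted to Rbpj-ps3. The Poisson intervals below do not cover how reads were divided between these loci. Rfng and Notch2 changed places whatever the place of Rbpj. In the control library it ran Rbpj, Notch2, Rfng, Hes1, Notch1 and Lfng. The Poisson intervals of neighbours did not overlap except for Notch1 (2.21 to 2.59 FPKM) and Lfng (1.83 to 2.71 FPKM). In the shSetdb1 library the order was Rfng, Notch2, Rbpj, Hes1, Notch1, Lfng and Mfng. There the intervals of Rbpj (6.56 to 7.23 FPKM) and Hes1 (5.23 to 6.80 FPKM) overlapped, as did those of Hes1 and Notch1 (5.37 to 5.94 FPKM) and those of Lfng (1.81 to 2.69 FPKM) and Mfng (1.45 to 2.18 FPKM). Hey1, Notch3 and Jag1 were at 0.114 FPKM or less in both libraries, as was Mfng in the control library, with 0 reads.

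The machinery around receptor and Rbpj was described with fixed lists, which share some genes. Over all 80 listed pathway and target genes outside the 10, 59 reached 1 FPKM, 2 were at least 2-fold higher (Notch4 and Neurl1b) and 4 at least 2-fold lower (Kdelc2, Nedd4, Myc and Snai2). That is beside 6.81% and 4.85% of all genes, and the median log2 ratio of the 59 was -0.0080. Of the 2 higher genes, Notch4 reached 1 FPKM in the shSetdb1 library alone, so the filter fixed its direction.

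Of 10 proteolysis genes, 9 reached 1 FPKM and none was past 2-fold on the log2 scale of (FPKM + 1), with a median of 0.23. Furin, the convertase that cleaves the receptor on its way to the surface, was highest, from 20.3 to 34.8 FPKM (log2 ratio 0.75). Psen2, a catalytic subunit of gamma-secretase, was lowest, from 182 to 70 reads (-0.80), although its read ratio of 0.372 (0.278 to 0.493) was past 2-fold. As Psen2 reached 1 FPKM in the control library alone (2.24 and 0.863 FPKM), the filter fixed its direction. Adam10, the main protease of ligand-bound receptors, was at 3.98 and 2.70 FPKM.

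All 8 coactivator genes listed beside Rbpj reached 1 FPKM, and each had a log2 ratio below 0, as had 5336 of all 10671 genes. The median of the 8 was -0.27 and none was 2-fold lower on that scale. Maml2 reached 1 FPKM in the control library alone (1.08 and 0.583 FPKM), so the filter fixed its direction. All 8 were below 0 under each of the scalings tried, but none of these could turn a sign. The highest median they gave for genes at 1 FPKM in both libraries was 0, from -0.0023, and Maml3, nearest 0, was at -0.0206. Once corrected for GC content and for length, 5 of the 8 were below 0, and Kat2b, Maml3 and Snw1 were above 0. The acetyltransferases Crebbp and Ep300 had the lowest ratios, both at -0.59, with read ratios of 0.489 (0.421 to 0.567) and 0.585 (0.538 to 0.635). Maml3, a Mastermind gene, was highest at -0.02, with a read ratio of 0.945 (0.801 to 1.11). Of the 8, 6 had an interval below 1, Maml2 among them, beside 40.6% of all genes.

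Corepressor genes were spread on both sides, with 15 of 17 at 1 FPKM, none past 2-fold on the log2 scale of (FPKM + 1) and a median of -0.0080, or 0.04 with the correction for GC content and length. Ctbp2, a corepressor, was highest, from 3.39 to 6.85 FPKM (log2 ratio 0.84), and Ncor1, a nuclear receptor corepressor, lowest, from 5.27 to 2.78 FPKM (-0.73). By read ratio, Tle2 (2.34, 1.88 to 2.92) and Kdm5a (0.485, 0.411 to 0.571), a corepressor of the Groucho family and a histone demethylase, were past 2-fold. Kdm5a reached 1 FPKM in the control library alone (1.66 and 0.833 FPKM), so the filter fixed its direction. The share of all genes past 2-fold by read ratio was not counted. Of 14 trafficking and turnover genes, 11 reached 1 FPKM, with 1 at least 2-fold higher (6.81% of all genes) and 1 at least 2-fold lower (4.85% of all genes). Their median was 0.34, or 0.24 with the correction for GC content and length. Neurl1b, a Neuralized-type ubiquitin ligase that acts on ligands, was at 3.94 and 9.93 FPKM, a log2 ratio of 1.15, or 0.997 with the GC content and length correction, just short of 2-fold. With that correction Dtx3l, which encodes a ubiquitin ligase of the Deltex family, passed 2-fold at 1.06 in place of 0.95, and Mib2, a Mind bomb ubiquitin ligase that acts on ligands, at -1.02 in place of -0.76. Nedd4, a ubiquitin ligase known to act on Notch, was at 29.6 FPKM in the control and 10.5 FPKM in the shSetdb1 library, with a log2 ratio of -1.42 and reads at a ratio of 0.342 (0.326 to 0.359). By read ratio, Itch (0.373, 0.313 to 0.443), Neurl1a (2.45, 1.96 to 3.10) and Dtx3l (2.51, 2.07 to 3.04) were also past 2-fold.

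**Figure D3:**
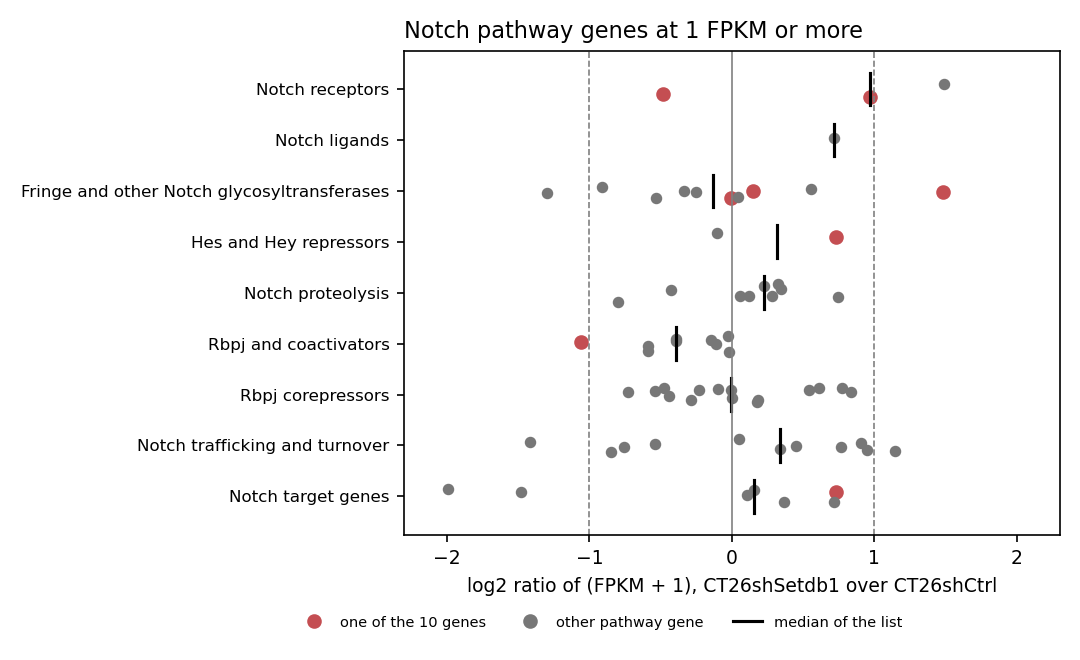
Log2 ratio of (FPKM + 1), knockdown over control (horizontal axis), for every listed gene at 1 FPKM or more, by list, with black marks at the list medians and dashed lines at 2-fold. The 10 genes are red and other genes grey, points are shifted vertically at random, and a gene on 2 lists is drawn on both. The row of Rbpj and its coactivators runs from -1.06 (Rbpj) to -0.02 (Maml3), all below 0, while Kat2b, Maml3 and Snw1 were above 0 after correction for GC content and length.

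The GC content of transcripts moved with the ratios across all genes. With the genes split into 5 equal bins by GC content, in the lowest bin (29.6% to 44.8%) the median log2 ratio was -0.18, and in the highest bin (55.8% to 75.5%) it was 0.20. Genes at least 2-fold higher made up 2.90% of the lowest bin and 11.0% of the highest. Rbpj, at 43.7% GC, lies in the lowest bin, and Notch1 (57.1%), Mfng (58.1%), Lfng (58.8%) and Rfng (59.2%) lie in the highest. Notch2, at 53.6%, lies in the bin between 52.2% and 55.8%, where the median was 0.09. Once corrected for GC content and for length, the log2 ratio of Notch1 was 0.92, of Notch2 -0.49, of Hes1 0.70 and of Mfng 1.24. Rfng went from 0.15 to -0.10 and Lfng from -0.01 to -0.25. The part of GC content in these differences was not tested.

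**Figure D4:**
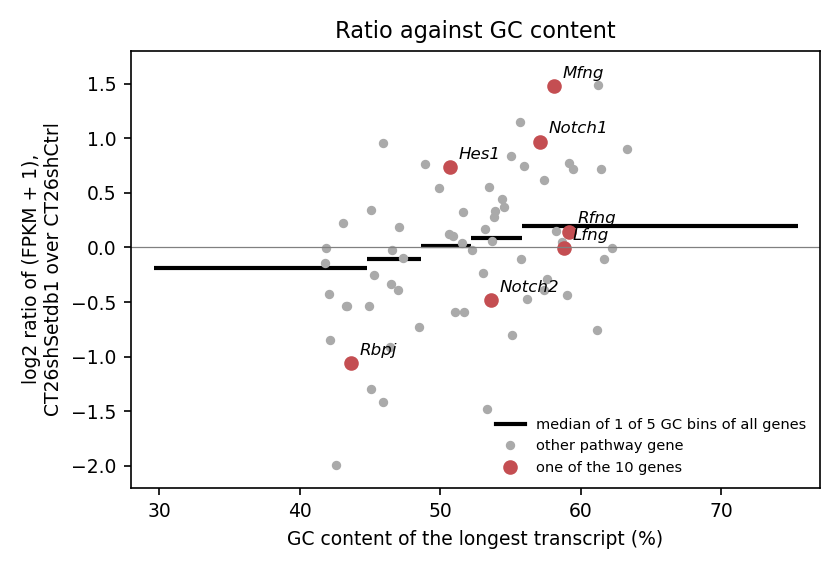
Log2 ratio of (FPKM + 1), knockdown over control (vertical axis), against the GC content of each gene's longest transcript (horizontal axis). Black bars are medians over 5 bins of all genes at 1 FPKM or more, from -0.18 to 0.20, and points are listed pathway genes, the 10 genes in red. Rbpj lies in the lowest bin and Notch1 and Mfng in the highest.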

How the data were processed

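RNA sequencing of total RNA was compared between 1 CT26shSetdb1 and 1 CT26shCtrl library, grouped by the genotype in the labels and matched to table columns by library name. The authors deposited FPKM values per gene, per the file name, with gene model lengths. The submitters' processing notes name CASAVA, HISAT2, featureCounts 1.5.0-p3 and GRCm38, without roles. Strand use, handling of reads that match several loci and the normalization step are not given in the sources used here. FPKM times length gave whole reads (within 0.001) for 100% of values above 0, with the same depth, 18731117 reads, behind both columns, so ratios of FPKM carry the 1.03 ratio of the read totals. The design had named FPKM or recovered reads, and both were used.

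Of the table's IDs, 54495 were in GENCODE M21, all on the same chromosome and 53585 with the same start and end. Of the 10 genes, 9 had the same position. Where a symbol stood on several loci, that with most reads was used. The 10 genes, the gene lists and the rule for named genes were chosen with earlier results of these data known. The rule took the 10 genes, Setdb1, and of each list the genes past 2-fold and the highest and lowest ratio at 1 FPKM or more. No genes were named for a like pattern, since 2 libraries give a single ratio. Other list genes that are named, such as Adam10, Pofut1, Poglut1, Nrarp, Hes7 and the low ligands, were chosen after their values were seen. Of the genes counted in the lists, 1 is not reported here.

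Alternatives were a pseudocount of 0.1, filters (none, 5 FPKM), folds of 1.5 and 4, scaling by read totals, median ratio, upper quartile or the sum without the 100 highest genes, and log2(CPM + 1). A correction for GC content and length (lowess, span 0.3) was added after seeing the data. The calculations were tested on simulated data. Intervals were computed with scipy 1.17.1 and the lowess with statsmodels 0.14.6, under Python 3.11.15 with pandas 2.3.3 and numpy 2.4.6, and plots were drawn with matplotlib 3.10.9.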

Additional observations from a re-analysis of the deposited data

How the results depend on the processing

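For the 9 genes with reads, 42 of 61 alternative log2 ratios stayed within counting error, 19 moved and 0 of the 2-fold values reversed. The interval of counting error was set on the (FPKM + 1) scale. A value with a pseudocount of 0.1 or on log2(CPM + 1) can therefore count as moved through the change of scale alone. Notch3 and Mfng had 0 reads in 1 library, so their main value lies at the edge of its own interval. For these genes any shift past that edge counts as moved by construction. Notch3, for example, moved from -0.00954 to -0.00970 with scaling by read totals. Rfng, which was not past 2-fold, changed sign to -0.10 with the GC content and length correction. In the counts below, brackets give the share of all genes under the same setting. Genes of the 10 at least 2-fold higher numbered 1 (6.81%), but 2 on log2(CPM + 1) (7.3%) and with a pseudocount of 0.1 (10.6%). They numbered 3 at 1.5-fold (16.9%), and 0 at 5 FPKM (7.63%) and at 4-fold (1.09%). Those at least 2-fold lower numbered 1 (4.85%), but 0 with the GC content and length correction (4.36%) and at 4-fold (0.525%). Among the other pathway genes, 2 were at least 2-fold higher, but 6 with a pseudocount of 0.1, 5 on log2(CPM + 1), 1 at 5 FPKM, 11 at 1.5-fold and 0 at 4-fold. The 4 lower genes (4.85%) became 7 on log2(CPM + 1) (6.95%) and with a pseudocount of 0.1 (8.15%), 11 at 1.5-fold (14.3%) and 0 at 4-fold (0.525%). With the GC content and length correction they were 5 (4.36%), with Mib2 added. The 2 higher genes (5.91%) were then Notch4 and Dtx3l in place of Notch4 and Neurl1b. The Setdb1 log2 ratio was -1.72, and -2.06 on log2(CPM + 1) and -2.04 with a pseudocount of 0.1. The thresholds and filters change the counts by construction, and the other causes were not tested. Among the scalings of FPKM, the upper quartile moved the median of genes at 1 FPKM in both libraries most, to -0.0765. No paired analysis was possible because there was a single library per group, which also meant that no library could be left out. Depth limits Notch3, Jag1, Hey1 and the Delta-like ligands, which had at most 7 reads in a library apart from the 45 of Dll1.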

Other observations

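Hes1 and Hey1 belong to the basic helix-loop-helix (bHLH) factors, and the authors' table marks 99 loci as bHLH. Of these, 30 reached 1 FPKM in at least 1 library, 8 were at least 2-fold higher in the shSetdb1 library and 1 at least 2-fold lower, beside 6.81% and 4.85% of all genes. Their median log2 ratio was 0.26, or 0.13 after correction for GC content and length. With that correction Tfap4 was also at least 2-fold lower, at -1.11 in place of -0.96. The 9 genes past 2-fold without the correction, and Tfap4, are named here after their values were seen. Id1, Id2 and Id3, which encode helix-loop-helix proteins without a DNA-binding region that pair with bHLH factors, had the highest log2 ratios of (FPKM + 1). Id1 had 229 reads in the control and 1429 in the shSetdb1 library, a read ratio of 6.04 (5.25 to 6.97). Id2 had 338 and 1454 reads, a ratio of 4.16 (3.69 to 4.70). Id3 had 142 and 1095 reads, a ratio of 7.46 (6.26 to 8.95).

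Bhlhe40 and Bhlhe41, repressors related to the Hes family, were also higher, with 2093 against 7921 reads (log2 ratio 1.88) and 217 against 631 reads (1.14). Mxd1 and Mxi1, which encode partners of Max that oppose Myc, had log2 ratios of 1.29 and 1.57, while Myc was the lower gene at -1.48 and Max was at -0.37. Mlxipl, which encodes a glucose-responsive factor, had 8 reads in the control and 155 in the shSetdb1 library, the largest read ratio of the 30 at 18.7 (9.28 to 44.2). Mlxipl reached 1 FPKM in the shSetdb1 library alone (0.0771 and 1.49 FPKM), so the filter fixed its direction. Hes1, at a log2 ratio of 0.73, was the next highest of the 30 on that scale. These values describe 2 libraries without replicates.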
